A study of Mus musculus with 3 samples.

Results

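Kinesins are motor proteins that walk along microtubules or shorten them, and the mouse genes named Kif, Kifc and Kifap3 code for them and for an associated subunit of kinesin-2. Genes of the array whose platform symbol begins with Kif and a digit, with Kifc, or is Kifap3 were taken, which gave 42 of 18193 genes, measured by 106 probe sets. They were sorted by known use into 14 mitotic, 14 axonal and vesicle transport, 9 ciliary and 5 other genes. The adaptor Kifbp falls outside that rule and was kept among the cargo adaptors.

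Messenger RNA was measured in sorted cells of the olfactory epithelium. The animals were neonatal mice, male and female, aged 5 to 8 days, all carrying the transgene Tgn1-2G. In this line GFP is known from other work to be driven by control elements of Neurog1, a proneural factor of olfactory progenitors, and GFP protein can outlast its own transcription. The GFP+++ fraction held 1000000 strongly fluorescent cells and was described by the submitters as rich in immature olfactory sensory neurons (OSN). The GFP+ fraction held 1300000 weakly fluorescent cells with a slight gain of mature neurons, and the GFP- fraction 6800000 unlabelled cells of all types, with fewer immature neurons. For every fraction the labels state a number of 32, taken as pooled mice, and leave unsaid whether mice were shared between fractions. Each fraction was measured on 1 array. Differences therefore have no replicate check, no test and no p-value, and they describe these 3 arrays. In bulk RNA, fewer cells of a type and less RNA per cell cannot be told apart.

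Mitotic kinesins build the spindle, move chromosomes and close the midbody, and their genes are transcribed mainly in cells that are about to divide. Kinesin-1, kinesin-3 and some kinesin-2 motors carry vesicles, mitochondria and cytoskeletal proteins down axons. Kinesin-2 also drives intraflagellar transport along cilia, and the cilia of a mature OSN hold the odorant receptors. The olfactory epithelium makes neurons throughout life, so dividing basal progenitors, neurons with growing axons and ciliated mature neurons lie side by side in it.

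Signals below 104, the median of all signals on the 3 arrays, were treated as a floor, and a fold is called at least 2-fold higher or lower after raising lower signals to it. Of the 42 kinesin genes, 35 passed the floor on at least 1 array and 30 on all of them. Under it on every array were Kif14, Kif15, Kif2b, Kifc5b, Kif7, Kif12 and Kif28, with signals between 1.28 and 87.3. Of all genes, 10734, 11674 and 12031 (GFP+++, GFP+, GFP-) lay above the floor, against 31, 35 and 33 kinesins. The spread between probe sets of 1 gene, pooled over all genes with several, was an SD of 0.30 in log2 fold for GFP+++ against GFP-, 0.24 for GFP+ against GFP- and 0.30 for GFP+++ against GFP+. For kinesins alone it was 0.32 over 15 genes, 0.22 over 17 and 0.27 over 15. It measures the array only and holds nothing of the spread between animals or sorts.

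The labels could be set against known markers. Gap43, a growth cone protein of immature OSN, gave 11233, 6006 and 6395 (GFP+++, GFP+, GFP-). Omp, which marks mature OSN, gave 5041, 10615 and 7748, and Neurog1 gave 1492, 1363 and 1202. Mki67, a protein of dividing cells, gave 753, 1758 and 2444. Gap43 was thus highest in GFP+++ and Omp in GFP+, but not every marker of these cells followed them. In GFP+++ against GFP-, 12 of 15 immature OSN markers were above 0 on the log2 scale, and Neurod1 (4078, 5069 and 6649), Stmn1 (16984, 12171 and 17655) and Chl1 (69.4, 194 and 291) were highest in GFP-. In GFP+ against GFP-, 9 of 14 mature OSN markers were above 0. Of the mature OSN markers, S100a5 (11132, 14929 and 18707), Stoml3 (9955, 12455 and 13659) and Ncam2 (292, 950 and 1540) were highest in GFP- too. So were Umodl1 (5019, 8934 and 8955) and Cngb1 (113, 121 and 128), by small margins over GFP+. These markers were named after their values were seen.

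**Figure D1:**
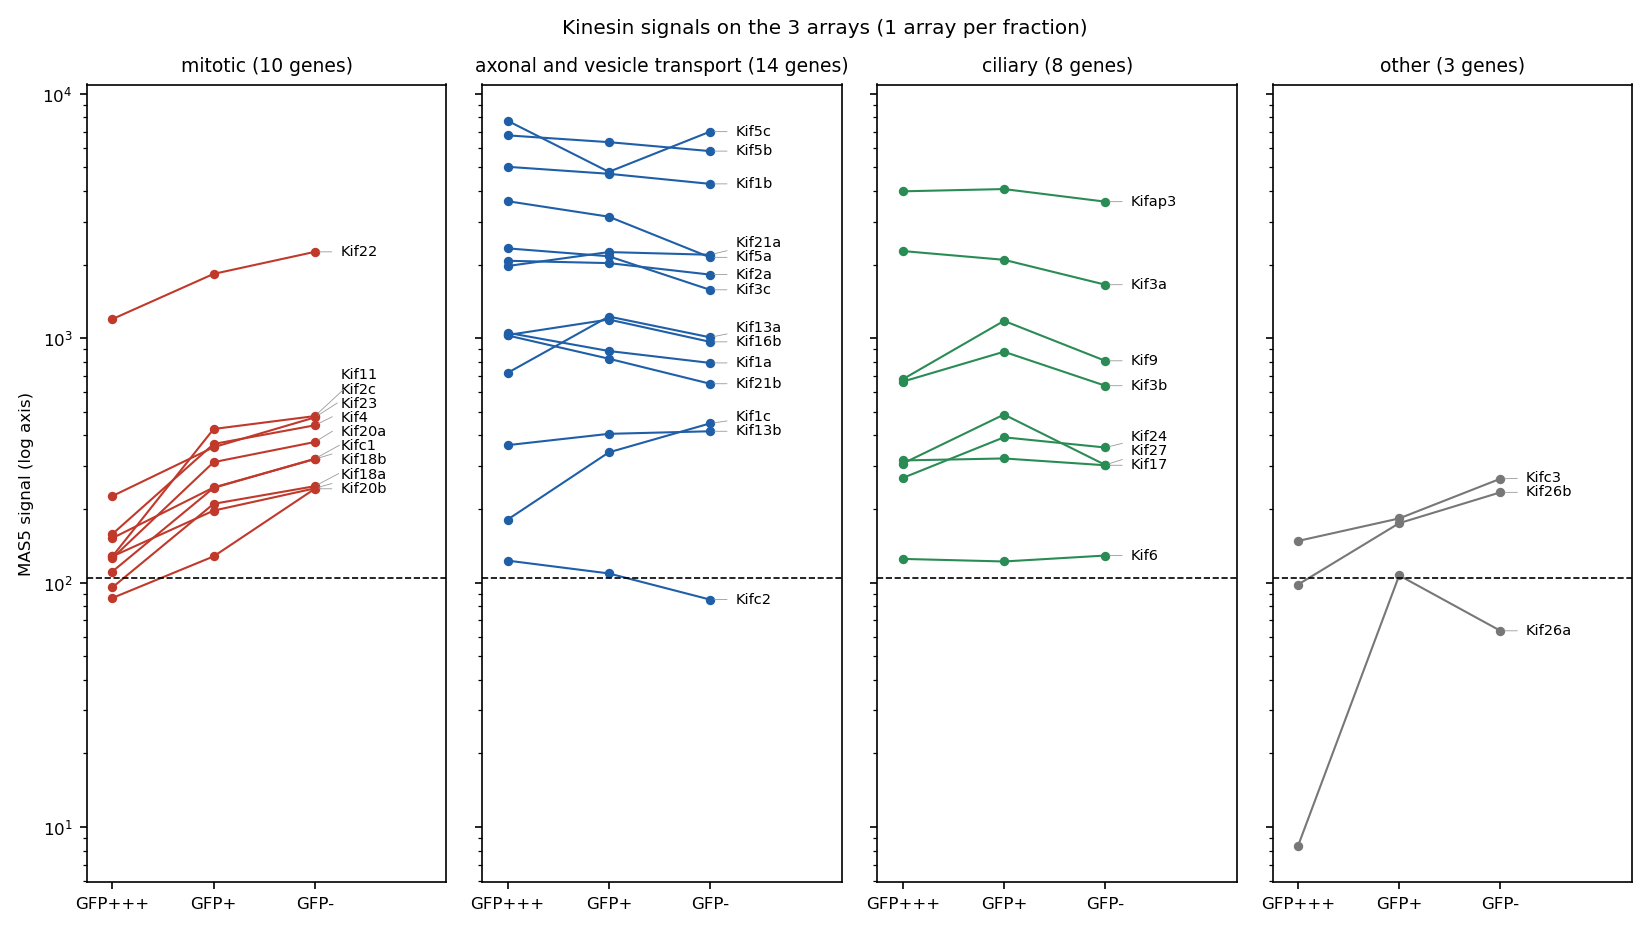
Signal (MAS5, log axis) of the 35 kinesin genes above the floor on at least 1 array, in the GFP+++, GFP+ and GFP- fractions. Each line is 1 gene, there is 1 array per fraction and no error bar, and the dashed line is the floor of 104. All 10 mitotic kinesins climb from GFP+++ to GFP-, while 8 axonal ones, Kifc2 among them, slope gently the other way.

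GFP+++ against GFP- asks which motors set the fraction rich in immature neurons apart. Most mitotic kinesins were at least 2-fold lower in GFP+++, while 1 of 14 axonal and 0 of 8 ciliary kinesins were. Of 34 kinesins compared, 10 were at least 2-fold lower (29.4%), where 12.4% of all genes were, and 0 were at least 2-fold higher, where 1.92% of all genes were. With each array scaled by its median signal, 8.58% of all genes were lower and 9.27% higher. Of the 10 lower genes 8 are mitotic, and the other two are Kif1c and Kif26b. Among these 34, 4 lay under the floor on 1 of the arrays, and 3 of these passed it only in GFP-, so that their direction followed from passing.

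Kif11, the motor that slides spindle microtubules apart and so separates the poles, had the largest difference of the family. Its signals were 128, 425 and 480 (GFP+++, GFP+, GFP-) and GFP+++ was 3.76-fold below GFP-. Of its other probe sets, a second gave 134, 401 and 434, and the last 78.8, 238 and 283. All of them put GFP+++ far below the other fractions, which lay close together.

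Kif4, a chromokinesin that shapes mitotic chromosomes and the central spindle, gave 126, 311 and 376 in GFP+++, GFP+ and GFP- and was 2.98-fold lower in GFP+++. Kif20a, which gathers cytokinesis factors at the midzone, gave 111, 244 and 321 and was 2.88-fold lower. Kif23, the motor of the centralspindlin complex, gave 158, 369 and 440 and was 2.78-fold lower. In these motors too the wider gap lay between GFP+++ and GFP+.

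Kifc1, which walks to the minus end and focuses spindle poles, gave 152, 245 and 320 and was 2.11-fold lower in GFP+++. Its probe set can bind several transcripts by its name ending, and Kifc5b is a near-identical gene, so the signal may be shared. Kif2c, which shortens microtubules at the centromere, gave 226, 358 and 474 and was 2.10-fold lower, and 2 further probe sets of it went the same way, both under the floor in GFP+++. Kif18b, a regulator of astral microtubules, gave 95.6, 210 and 248, at least 2.38-fold lower. Kif20b, which acts in abscission, gave 86.5, 128 and 242, at least 2.32-fold lower. Kif20b differed from the others in having a GFP+ signal much nearer to GFP+++ than to GFP-.

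Kif18a and Kif22 stayed just inside the 2-fold line. Kif18a, which damps the swing of chromosomes at the metaphase plate, gave 128, 197 and 243 (log2 fold -0.92). Kif22, a chromokinesin that binds chromosome arms, gave 1197, 1832 and 2255 (-0.91). Its other probe sets spread widely, at -1.57 and -0.43, and its brightest one can cross-bind by its name ending.

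Across the 10 mitotic kinesins compared, the median log2 fold was -1.23, where it was 0.01 over all 12235 genes compared. All 10 lay below 0, the lowest at -1.91 and the highest at -0.91. Where each array was scaled by its median signal instead of the trimmed mean, the median of all genes was 0.42. The mitotic median relative to all genes was then -1.42, against -1.24 in the scaling used here. With quantile normalization the mitotic median was -1.07, or -1.12 relative to all genes, and all 10 stayed below 0 under each scaling. The number at least 2-fold lower was less firm: 8 mitotic genes here, 5 with median scaling and 6 with quantile normalization. It was 4 without probe sets of the name endings _x_at, _s_at and _a_at. Kif20a and Kifc1 then had no probe set left and Kif20b only ones under the floor, while Kif2c lay at -0.94. With the floor raised from 104 to 276, the 65th percentile, 0 kinesins were called in either direction. The 10 lower genes had GFP- signals of 234 to 480, so none of them could be 2-fold above that floor.

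The partners of these motors went the same way. Of 26 mitotic spindle and cytokinesis genes, 19 were at least 2-fold lower in GFP+++ and 0 higher, with a median log2 fold of -1.47. Cenpe, the kinetochore kinesin whose symbol lies outside the Kif rule, gave 111, 263 and 355 in GFP+++, GFP+ and GFP- and was 3.19-fold lower. Plk1, a kinase of mitotic entry and exit, was 3.63-fold lower, Aurkb, the kinase of the chromosomal passenger complex, 3.21-fold, and Tpx2, a spindle assembly factor, 2.90-fold. Cdc20, an activator of the anaphase ligase, was 2.28-fold lower, and Cdca8, another passenger subunit, 1.99-fold. Racgap1, which pairs with Kif23 in centralspindlin, lay within 2-fold (log2 -0.59), as did Prc1 (-0.38), the bundler of midzone microtubules that guides Kif4.

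Other cell types moved with this result. The summed signal of 16 immune markers was 2345, 29041 and 35464 (GFP+++, GFP+, GFP-), and 15 were at least 2-fold lower in GFP+++. For 10 fibroblast and matrix markers the sums were 2554, 28178 and 47029, with 9 lower. The sums of 8 horizontal basal cell markers were 4794, 5381 and 7261, with 4 lower, and of 11 sustentacular markers 55323, 76909 and 103707, with 7 lower. Dsp alone gave most of the horizontal basal sums (4473, 3816 and 4785) and lay at a log2 fold of -0.10. Under the floor in GFP+++ were 9 immune, 3 fibroblast, 6 horizontal basal and 0 sustentacular markers. The sums of 8 globose basal progenitor markers were 17626, 15472 and 19554, and of the 7 compared 3 were lower. All 11 Bowman gland and all 6 ensheathing glia markers were lower, as were 2 of 7 endothelial and 2 of 2 erythroid ones compared. Mki67 was 3.25-fold lower. The part of these cell types in the mitotic result was not tested.

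The promoters of the family were described from RefSeq windows of 250 bases before to 50 after the start (GRCm38.p6), found for 34 of the 42 kinesins and 13 of 14 mitotic ones. The 13 include Kif14, Kif15, Kif2b and Kifc5b, which stayed under the floor, and lack Kif20a. Cell cycle promoters are known for CCAAT boxes, and for a short element near the start called CHR. The first was searched on either strand, which also reads ATTGG. CHR was searched as TTTGAA, which reads TTCAAA on the opposite strand, and in its second known form as TTCGAA, which reads the same on both strands. CCAAT stood in 9 of 13 mitotic kinesin promoters and in 37.4% of the 18109 promoters of genes on the array. The CHR letters stood in 11 of 13, against 15.1% on the array. Both together stood in 8 of 13, against 5.97% on the array, in 0 of 12 promoters of axonal kinesins and in 2 of 10 of ciliary ones. Kifc1 and Kifc5b, near-identical in sequence around the start, both count among the 9, the 11 and the 8. The 12 axonal promoters cover 9 of 14 genes, and Kif5a, Kif5b, Kif13b, Kif21b and Kifc2 have none. A match of letters is a description and not a bound site.

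Below are 80 bases before and 25 bases after the start for 5 mitotic kinesins whose windows hold both motifs and for the axonal Kif5c for comparison, 5′ to 3′, with motif letters in capitals. Kif11 lies at chr19:37376302-37376406, plus strand, Kif18b at chr11:102925100-102925204, minus strand, and Kif22 at chr7:127042396-127042500, minus strand. Kif23 lies at chr9:61946775-61946879, minus strand, Kif4 at chrX:100625985-100626089, plus strand, and Kif5c at chr2:49619206-49619310, plus strand. The GGAAAC in capitals in Kif18b matches another motif, described with the ciliary kinesins.
Kif11: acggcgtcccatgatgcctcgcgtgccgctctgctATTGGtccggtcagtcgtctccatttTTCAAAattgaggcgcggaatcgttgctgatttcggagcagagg
Kif18b: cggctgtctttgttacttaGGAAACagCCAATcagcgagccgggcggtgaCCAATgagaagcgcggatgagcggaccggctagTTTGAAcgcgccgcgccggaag
Kif22: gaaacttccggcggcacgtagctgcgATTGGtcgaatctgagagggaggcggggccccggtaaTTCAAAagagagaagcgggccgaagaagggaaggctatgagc
Kif23: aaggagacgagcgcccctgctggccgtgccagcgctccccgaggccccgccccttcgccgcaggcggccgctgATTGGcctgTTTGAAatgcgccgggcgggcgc
Kif4: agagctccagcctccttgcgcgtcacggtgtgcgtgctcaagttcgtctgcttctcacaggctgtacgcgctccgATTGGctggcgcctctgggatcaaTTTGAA
Kif5c: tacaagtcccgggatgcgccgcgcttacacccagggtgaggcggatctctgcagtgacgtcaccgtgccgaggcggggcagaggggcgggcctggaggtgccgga
The stretches were picked after the matches were seen, so the order of the motifs in them is no result. Of the mitotic promoters with both motifs that are not shown, Kif14 has them in the reverse order. The Kif5c stretch has neither.

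Axonal and vesicle motors differed little between GFP+++ and GFP-. Of 14 compared, 0 were at least 2-fold higher and 1 was at least 2-fold lower, where 1.92% and 12.4% of all genes were. With 14 genes these counts lie near those shares. The log2 fold was above 0 for 10 motors and below 0 for 4 (median 0.20), where 6203 of 12235 genes in all were above 0. Kif5a, Kif21b, Kif3c and Kif1a exceeded the probe set SD of 0.30 upwards, and the other members above 0 lay within it. Kif5a, the neuron-specific kinesin-1 heavy chain that hauls neurofilaments and other axonal cargo, gave 3634, 3140 and 2141 (GFP+++, GFP+, GFP-), a log2 fold of 0.76 for GFP+++ over GFP-. Its probe set was the only one of its gene above the floor. Kif5b, the heavy chain found in most cells, gave 6756, 6338 and 5825 (0.21 on that scale, as for the motors that follow), and its further 5 probe sets ranged from -0.31 to 0.82. With the probe sets used, both heavy chains were highest in GFP+++ and lowest in GFP-, with a wider range in Kif5a. For Kif5b some further probe sets kept this order, as at 4171, 3445 and 3116. Others put GFP+ lowest, as at 835, 419 and 543, or GFP- highest (265, 297 and 329).

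Kif5c, a kinesin-1 heavy chain enriched in neurons, behaved otherwise, with 7752, 4791 and 6998 (GFP+++, GFP+, GFP-). A second probe set gave 2632, 1451 and 1257. Both were higher in GFP+++ than in GFP+ (log2 0.69 and 0.86), but they disagreed on GFP+++ against GFP- (0.15 and 1.07) and on GFP+ against GFP- (-0.55 and 0.21). The place of GFP- in Kif5c thus depends on the probe set.

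Among the kinesin-3 motors, Kif1a and Kif1b lay above 0 and Kif1c far below. Kif1a, which carries synaptic vesicle precursors, gave 1052, 886 and 792 in GFP+++, GFP+ and GFP- (0.41), and a second probe set gave 287, 179 and 125 (1.20). Kif1b, whose isoforms carry mitochondria or vesicle precursors, gave 5024, 4704 and 4278 (0.23). Kif1c, a widely expressed motor linked to vesicle traffic, gave 181, 341 and 448 and was 2.47-fold lower in GFP+++, and a second probe set gave 97.3, 128 and 183. The Kif1a fold exceeded that of Kif1c by 1.72 in log2, a gap that no scaling factor changes. With the median over its 4 probe sets Kif1c was not called.

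Kif21b and Kif3c were the other axonal motors near the upper end. Kif21b, a dendritic and axonal kinesin-4 that slows microtubule growth, gave 1026, 824 and 651 (0.66). Its relative Kif21a gave 1973, 2250 and 2194 (-0.15), which turned to 0.26 with median scaling. Kif3c, a neuronal kinesin-2 subunit that can work without Kif3a, gave 2330, 2163 and 1577 (0.56), and a second probe set 1793, 1546 and 960 (0.90). With median scaling Kif5a and Kif21b were at least 2-fold higher, and the axonal median was 0.58, or 0.16 relative to all genes against 0.19 here.

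The remaining transport motors lay closer to level. Kif2a, which trims axon branches by shortening microtubules, gave 2073, 2028 and 1820 (0.19), and further probe sets lay at 0.11, -0.10 and -0.29. Kif16b, a motor of early endosomes, gave 1030, 1192 and 966 (0.09). Kif13a, which moves recycling endosomes, gave 721, 1226 and 1008 (-0.48), and further probe sets at -0.18 and -0.71 went the same way. Its relative Kif13b gave 365, 406 and 416 (-0.19, and 0.23 with median scaling). Kifc2, a minus-end motor of neurons, stayed near the floor, with 123, 109 and 85.2, and GFP+++ exceeded GFP- by at least 1.18-fold. Kif13a was highest in GFP+ with the probe set used, but another of its probe sets was highest in GFP- (142, 193 and 232).

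The light chains and adaptors that couple kinesin-1 and kinesin-3 to cargo were likewise mostly within 2-fold. Of 20 compared in GFP+++ against GFP-, 14 were above 0 (median 0.23) and 1 was at least 2-fold lower, where 12.4% of all genes were. Klc1, the neuronal kinesin light chain, gave 7505, 4964 and 4442 (0.76), and Madd, an adaptor of Kif1a and Kif1b for Rab3 vesicles, 2159, 1876 and 1363 (0.66). Jakmip1 was at 0.12, and Kifbp, which binds and restrains several kinesins, at -0.23. Fez1, an adaptor of kinesin-1, gave 112, 243 and 228 and was 2.04-fold lower than in GFP- and 2.17-fold lower than in GFP+. The dynein and dynactin genes, which drive the way back to the cell body, had a median of 0.19 over 25, with Dynll1 at 0.08 and Dynll2 at 0.15. Their lower member was Nde1, a dynein regulator with a known part in progenitor division, at 111, 185 and 244 (2.21-fold). The summed signal of 15 immature OSN markers was 107725, 72367 and 86968, with 12 above 0 in this comparison, and its part in the axonal folds was not tested.

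**Figure D2:**
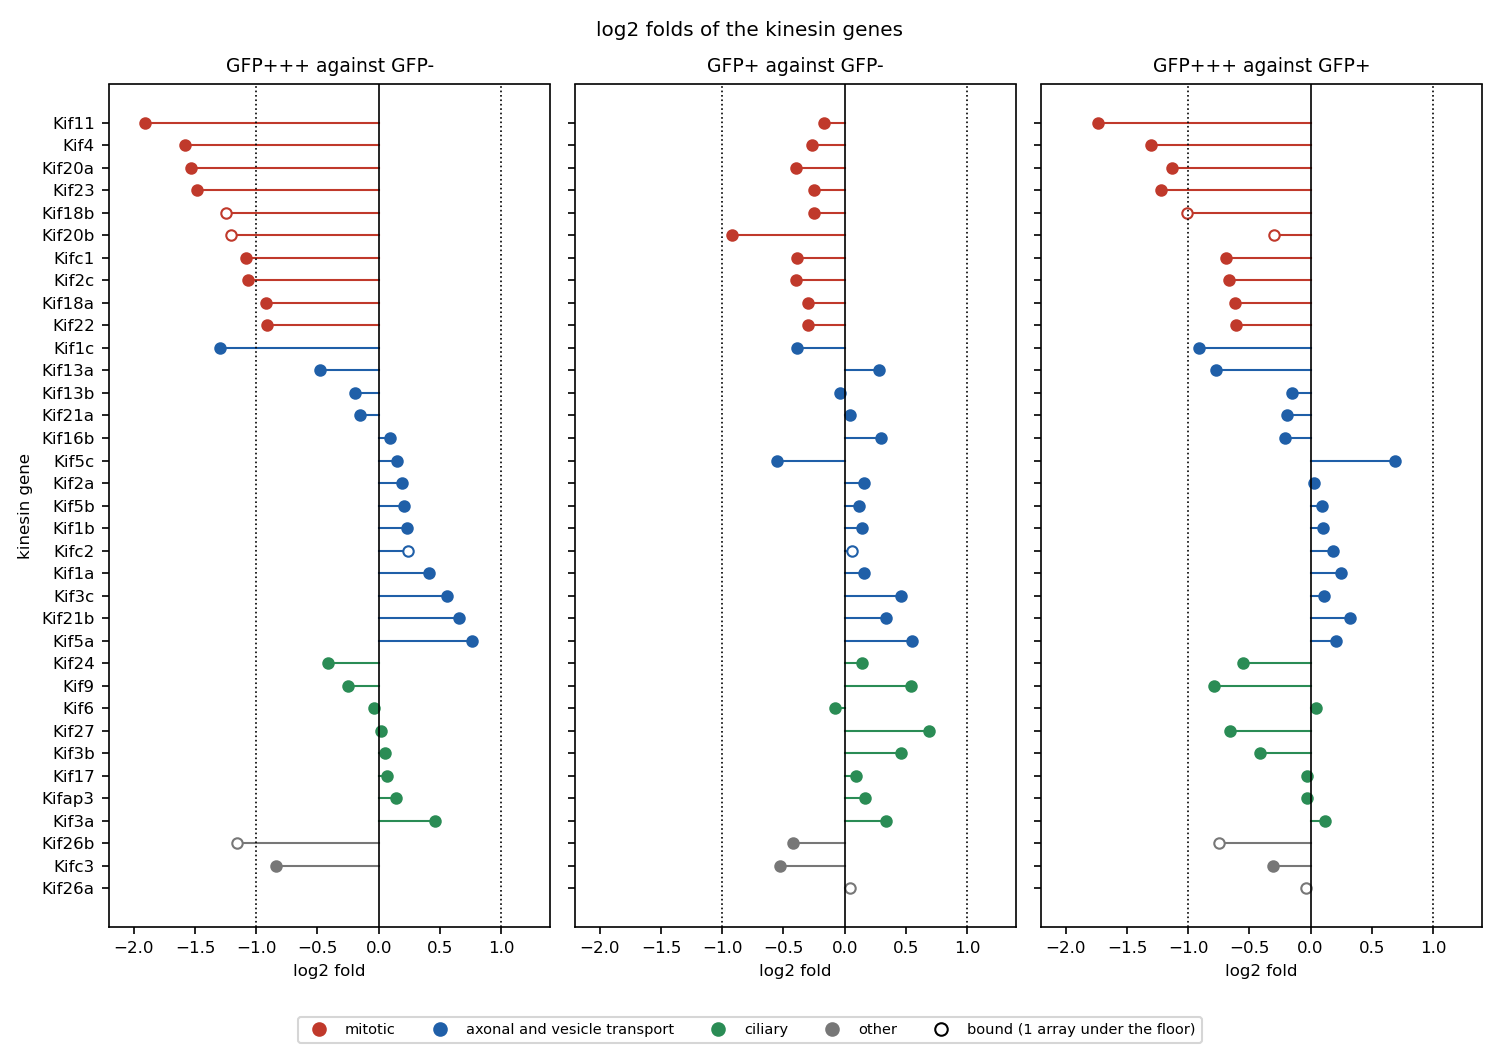
Log2 folds of the 35 kinesins in the 3 comparisons, coloured by role. Filled points were above the floor on both arrays, open points are bounds with 1 array under it, and dotted lines mark 2-fold. Red mitotic points reach -1.91 in GFP+++ against GFP- but no further than -0.92 in GFP+ against GFP-, and green ciliary points reach 0.69 there.

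Ciliary kinesins showed no 2-fold difference in any comparison, among the 8 of 9 that passed the floor. Of all genes, 12.4% were at least 2-fold lower and 1.92% higher in GFP+++ against GFP-. These shares were 0.804% and 0.607% in GFP+ against GFP-, and 9.34% and 0.985% in GFP+++ against GFP+. At such shares, 0 calls among 8 genes says little about the ciliary kinesins. In GFP+++ against GFP- their median log2 fold was 0.04, with 5 above 0 and 3 below. Kif3a, the kinesin-2 motor that cilium assembly requires, gave 2272, 2092 and 1655 (GFP+++, GFP+, GFP-), a log2 fold of 0.46, and its other 3 probe sets lay between 0.23 and 0.74. Kif3b, its partner motor, gave 664, 880 and 639 (0.05), and Kifap3, the subunit that binds their tails, gave 3988, 4074 and 3618 (0.14). A second Kifap3 probe set gave 1389, 1383 and 936 (0.57). With the probe sets used, Kif3a was thus highest in GFP+++ and Kif3b in GFP+. The lead of GFP+++ over GFP+ in Kif3a (0.12) was within the probe set SD of 0.30. Another Kif3a probe set was highest in GFP+ (1765, 1793 and 1308), while its remaining ones kept GFP+++ highest.

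Kif17, a homodimeric kinesin-2 that helps to bring channels into OSN cilia, was near level at 316, 322 and 302 (0.07) with the probe set used. A second probe set gave 163, 220 and 152 (0.10), and its GFP+ signal exceeded GFP- by 0.53 in log2. Kif24, which keeps centrioles from growing cilia, gave 268, 393 and 357 (-0.41). Kif6, a motor tied to motile cilia of the ependyma, stayed near the floor at 125, 122 and 129 (-0.04, and 0.37 with median scaling). Kif9 and Kif27 lay at -0.25 and 0.02, and Kif9 turned to 0.16 with median scaling. Of these, Kif24 exceeded the probe set SD of 0.30 in the scaling used here, and the others did not. The other scalings brought Kif24 inside that SD. Its fold vanished (0.00) once arrays were scaled by their medians, while quantile normalization left -0.19.

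The weakly fluorescent cells were next set against the unlabelled ones. This comparison shares the GFP- array with the comparison above, so the folds are set side by side only. Of 35 kinesins compared, 0 passed 2-fold in either direction. Of all genes 0.607% were higher and 0.804% lower by that rule, and 1.09% and 0.384% with median scaling. At 1.5-fold, Kif27 was higher and Kif20b lower, where 4.67% and 7.13% of all genes were.

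Ciliary kinesins stood highest here, with a median log2 fold of 0.25 where that of all genes was -0.01, and 7 of 8 above 0. Kif27, a relative of Kif7 linked to the build of motile cilia, gave 307, 487 and 303 (GFP+++, GFP+, GFP-), a log2 fold of 0.69 for GFP+ over GFP-. Kif9, a motor of the central pair in motile cilia and flagella, gave 679, 1177 and 808 (0.54), and Kif3b was at 0.46. All of them were highest in GFP+, and their GFP+++ and GFP- signals lay within the probe set SD of each other. The further 3 probe sets of Kif3b lay at 0.27, 0.37 and 0.68. Relative to all genes the ciliary median was 0.26 with the trimmed and median scalings and 0.24 with quantile normalization.

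Genes of motile cilia leaned the same way and those of intraflagellar transport did so in both GFP positive fractions. Of 18 motile cilium genes compared in GFP+ against GFP-, 16 were above 0 (median 0.45), and 1 was at least 2-fold higher. That one was Tppp3, a tubulin binding protein, at 2446, 2195 and 886 (GFP+++, GFP+, GFP-). Rsph9, a radial spoke protein, was at 0.69, and Mlf1 at 0.20. In GFP+++ against GFP- the motile cilium median was 0.03 over 17, and Tppp3 (2.76-fold) and Dnah9 (2.05-fold), an axonemal dynein, were higher. Foxj1, the master factor of motile cilia, gave 367, 617 and 390. Intraflagellar transport genes had a median of 0.30 over 24, with 23 above 0, and 0.28 in GFP+++ against GFP-, with 22 above 0. Ift43 was at 0.22 and 0.63 and Ift81 at 0.26 and 0.14 in these comparisons. The sums of 14 mature OSN markers, whose cells also bear cilia, were 61380, 94312 and 87700. The part of either cell type in the ciliary folds was not tested.

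Ciliary promoters were searched for GTTNCC on either strand (also GGNAAC), the letters of one arm of the site of RFX factors, which are known regulators of cilium genes. It stood in 8 of 10 promoter windows of 9 ciliary kinesins, where both windows of Kif9 overlap and share 1 match, in 5 of 13 mitotic and 7 of 12 axonal ones, and in 46.4% of promoters of genes on the array. The stretches of Kif9 (chr9:110476914-110477018, plus strand) and Kif17 (chr4:138262171-138262275, plus strand) are given since both hold the letters within the stretch shown, again with 80 bases before and 25 after it, 5′ to 3′ and motif letters in capitals.
Kif9: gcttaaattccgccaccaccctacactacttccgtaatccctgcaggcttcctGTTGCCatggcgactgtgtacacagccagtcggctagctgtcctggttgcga
Kif17: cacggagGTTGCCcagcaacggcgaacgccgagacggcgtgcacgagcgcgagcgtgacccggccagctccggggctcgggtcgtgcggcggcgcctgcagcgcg
The Kif9 stretch is that of the second of its starts in RefSeq.

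For mitotic kinesins 0 of 10 passed 2-fold in GFP+ against GFP-. Their median log2 fold was -0.30, with 10 of 10 below 0, against a probe set SD of 0.24. Apart from Kif20b (-0.92) they lay between -0.40 and -0.17. Their 26 partners had a median of -0.38, and 0 passed 2-fold. Axonal kinesins had a median of 0.15 with 11 of 14 above 0, led by Kif5a (0.55), Kif3c (0.46) and Kif21b (0.34), while Kif5c (-0.55) and Kif1c (-0.39) were lowest. Adaptors had a median of 0.19 over 19 genes and dynein and dynactin -0.02 over 25.

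**Figure D3:**
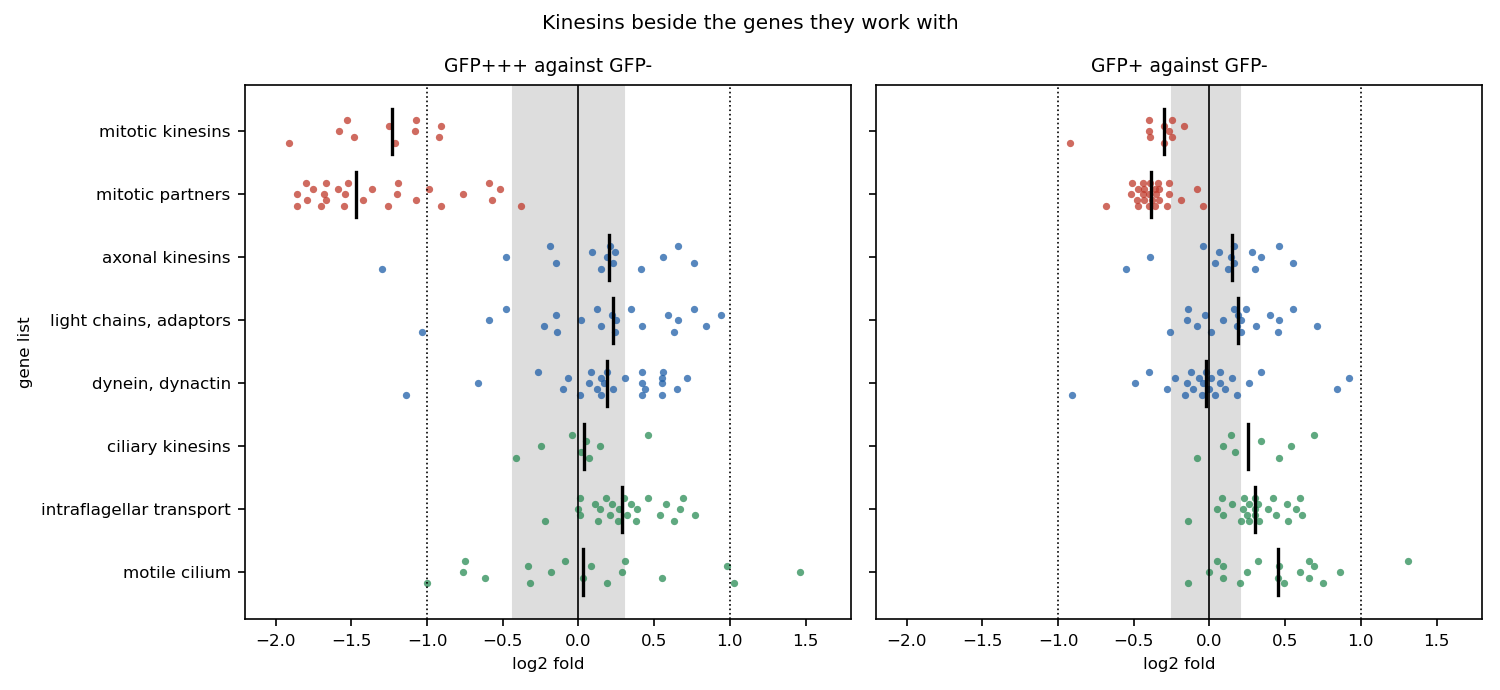
Log2 folds of kinesins by role and of the lists of genes they work with, for GFP+++ against GFP- and GFP+ against GFP-. Each point is 1 gene, bounds included at their bound, black bars are medians, dotted lines mark 2-fold, and the grey band holds the middle of all genes from the lower to the upper quartile (-0.43 to 0.30 and -0.25 to 0.20). In the first comparison the medians of the mitotic kinesins and their partners, -1.23 and -1.47, lie left of the band, while the partner Prc1 (-0.38) lies inside it.

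GFP+++ against GFP+ asks how the strongly and the weakly fluorescent cells differed. Of 35 kinesins compared, 5 were at least 2-fold lower in GFP+++, where 9.34% of all genes were, and 0 were higher by that much, where 0.985% were. With median scaling these shares of all genes were 6.40% and 3.47%. All 5 are mitotic: Kif11 (3.33-fold), Kif4 (2.47-fold), Kif23 (2.33-fold), Kif20a (2.19-fold) and Kif18b (at least 2.01-fold). With median scaling or quantile normalization, Kif11 and Kif4 were the ones left. The mitotic median was -0.85, with 10 of 10 below 0, and 13 of the 26 partners were at least 2-fold lower.

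Ciliary kinesins had a median of -0.22, with Kif9 (-0.79), Kif27 (-0.66), Kif24 (-0.55) and Kif3b (-0.41) lowest and Kif3a at 0.12. With median scaling the sign of that median turned, to 0.06. Relative to all genes it was -0.20 here, -0.19 with median scaling and -0.25 with quantile normalization. Of 18 motile cilium genes, 4 were at least 2-fold lower: Rsph4a, Dnah11, Dnaic2 and Dnali1. Dnaic2 and Dnali1 were under the floor in GFP+++ and entered through GFP+, so their direction followed from passing it. Axonal kinesins had a median of 0.09, with 9 of 14 above 0, and quantile normalization brought it to 0.00. Kif5c (0.69), Kif21b (0.32) and Kif1a (0.25) were highest, and Kif1c (-0.91) and Kif13a (-0.77) lowest. Dctn6, a dynactin subunit, was the dynein list's member past 2-fold, at 2747, 1002 and 1882 (GFP+++, GFP+, GFP-).

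The kinesins of other or less settled use were few. Kif26b, a kinesin without known motor activity that acts in kidney development, gave 98.1, 175 and 234 (GFP+++, GFP+, GFP-), at least 2.24-fold lower in GFP+++. Kifc3, a minus-end motor of epithelial junctions, gave 148, 183 and 266 (-0.84). Kif26a passed the floor in GFP+ alone, with 8.35, 107 and 63.5. Kif26b and Kifc3 shared the order of the mitotic motors, with GFP- highest.

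**Figure D4:**
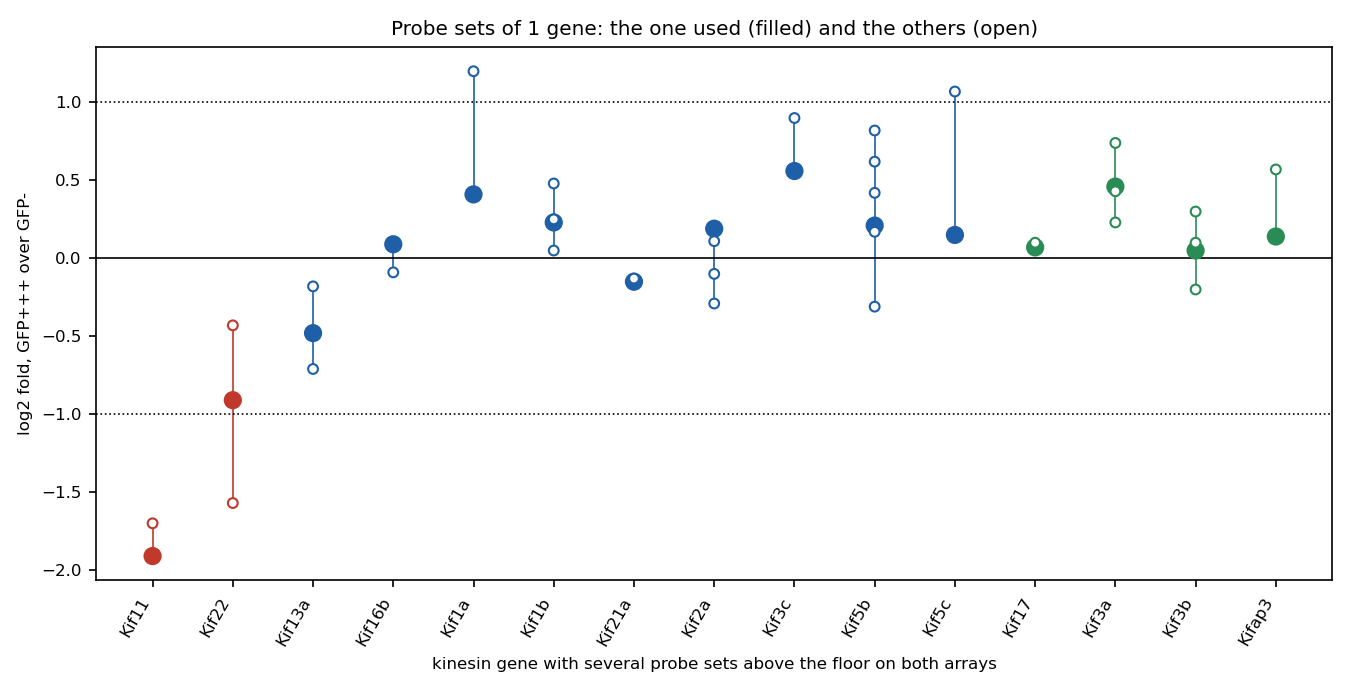
Log2 folds of GFP+++ over GFP- for the 15 kinesins with several probe sets above the floor of 104 on both arrays, coloured by role as in the plot of folds. Filled points are the probe sets used, open points the others, lines span them, and dotted lines mark 2-fold. All points of Kif11 and Kif22 lie below 0, and those of Kif5c and Kif1a lie far apart, at 0.15 and 1.07 and at 0.41 and 1.20.

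Across the 3 arrays and with the probe sets used, the 8 mitotic kinesins above the floor everywhere had the same order, GFP+++ lowest and GFP- highest. A further Kif22 probe set put GFP+ lowest, at 112, 107 and 151 (GFP+++, GFP+, GFP-). Of 13 axonal ones, 7 ran the other way, with GFP- lowest and GFP+++ highest: Kif1a, Kif1b, Kif21b, Kif2a, Kif3c, Kif5a and Kif5b. Among these, Kif21b alone (0.32) had a lead of GFP+++ over GFP+ beyond the probe set SD of 0.30. The further Kif2a probe sets above the floor were highest in GFP+, the brightest of them at 1817, 1929 and 1688 (GFP+++, GFP+, GFP-). Of 8 ciliary ones, 6 were highest in GFP+ with the probe sets used: Kif17, Kif24, Kif27, Kif3b, Kif9 and Kifap3. In Kif17, Kif24 and Kifap3 the lead over the next fraction was within the probe set SD. In Kif17 and Kifap3 it turned with median scaling, where GFP+++ exceeded GFP+. A second Kif17 probe set (163, 220 and 152) was highest in GFP+ by more than the SD. A second Kifap3 probe set (1389, 1383 and 936) was highest in GFP+++. The order of GFP+++ and GFP+ in Kif1b and Kif5b turned with quantile normalization, to -0.05 and -0.08.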

How the data were processed

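RNA of 3 sorted fractions was hybridised to 1 array each. The authors deposited linear signal intensity per probe set. It comes from MAS5 per the submitters' processing notes, whose version is not given in the sources used here. Each array had a 2% trimmed mean of 500.0. No detection calls were used. Of 45101 probe sets, 34958 had 1 gene symbol, 932 several and 9211 none. All 42 kinesins matched RefSeq through their Entrez identifiers with the same symbol. Each gene was read from its brightest probe set (mean of the arrays), so levels of different genes are not comparable. Signals under 104 (the 50th percentile over all arrays) were raised to that floor, and folds under it are bounds, written "at least". Calls are at 2-fold. MAS5 does not correct differences in array shape. The steps were tested on simulated arrays (Python 3.11.15, numpy 2.4.6, pandas 2.3.3). Changes were put only into genes well above the floor, so calls near the floor were not covered. Alternatives changed the scaling, floor, probe set and fold. Every kinesin was described, and from the gene lists the members past 2-fold and the 2 with the highest signal were eligible for naming; Klc1, Madd, Foxj1, Racgap1 and Prc1 were added after their values were seen. Members and lists were chosen with earlier results of these data known. The planned comparison of proteins was not made, since no protein sequences were used here.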

Additional observations from a re-analysis of the deposited data

How the results depend on the processing

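With 1 array a group, no sample could be left out. Scaling each array by its median gave 2 kinesins at least 2-fold higher and 5 lower in GFP+++ against GFP-, medians of 0.58 (axonal) and 0.45 (ciliary) there, and 2 lower in GFP+++ against GFP+. Over all genes of GFP+++ against GFP-, higher and lower then went from 235 higher and 1522 lower to 1129 and 1045. In GFP+ against GFP- it went from 74 and 98 to 131 and 46, and in GFP+++ against GFP+ from 117 and 1110 to 416 and 767. Quantile normalization left 2 lower kinesins in GFP+++ against GFP+, and gave 367 (GFP+++ against GFP-) and 179 (GFP+++ against GFP+) higher genes of all. The floor at the 65th percentile left 0 lower kinesins in GFP+++ against GFP- and 0 in GFP+++ against GFP+, with mitotic medians of -0.67 and -0.42, since no lower kinesin reached 2 times this floor in GFP-. Over all genes it gave 152 higher and 746 lower, 40 and 38, and 71 and 526 in the order of comparisons above. The floor at the 35th percentile gave 1 lower kinesin in GFP+ against GFP-, Kif7, which was then called lower in GFP+++ against GFP- too. Over all genes this floor gave 2335 lower, then 118 higher and 220 lower, then 1814 lower. Without probe sets of the endings _x_at, _s_at and _a_at, 6 kinesins were lower in GFP+++ against GFP-, and 37 kinesins kept a value. At 1.5-fold, 2 were higher and 13 lower in GFP+++ against GFP-, 1 higher and 1 lower in GFP+ against GFP-, and 1 higher and 14 lower in GFP+++ against GFP+. Over all genes these were 1139 and 2507, 570 and 870, and 759 and 2157. Of 558 single folds under these alternatives, 496 moved by less than the probe set SD, 62 by more, 31 of them by median scaling, and 0 with a 2-fold call changed sign. Signals near the floor limit the mitotic folds.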

Other observations

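The CHR letters of the mitotic kinesins gathered near the start, a pattern looked for after their positions were seen. They began within 30 bases of it in 9 of 13 mitotic promoters and in 2.48% of the 18109 promoters of genes on the array. For axonal promoters it was 0 of 12, which cover 9 genes, and for ciliary ones 1 of 10. Kif26b, one of the lower kinesins outside the mitotic group, was the 1 of 3 promoters of the other group that held CHR letters there. The near-identical Kifc1 and Kifc5b promoters are both among the 9 mitotic ones.

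Members of 1 family did not always move alike, and a scaling factor does not change their gap. The pairs were chosen after their values were seen. In GFP+++ against GFP- the log2 fold of Kif2a exceeded that of Kif2c by 1.26, both being microtubule-shortening kinesin-13 motors, and the fold of Kif1b exceeded that of Kif1c by 1.54. Kif5a exceeded Kif5b by 0.55. These gaps are those of the probe sets used. A further Kif5b probe set lay at 0.82, above Kif5a at 0.76, and further Kif2a probe sets lay at 0.11, -0.10 and -0.29. The gap of -0.81 put Kif21a under Kif21b. Kif7, a cilium tip protein of Hedgehog signalling, lay under the floor with 5.98, 39.1 and 87.3 (GFP+++, GFP+, GFP-).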
